A study of Mus musculus with 16 samples.

Results

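The suppressor of cytokine signalling (SOCS) family and the PIM kinases were followed as 10 genes of the 55335 in the deposited count table: Socs1 to Socs7, Cish, Pim1 and Pim2, matched by gene name. Each name matched a single row, and all 10 genes had counts in each of the 16 libraries and passed the filter on low counts. In GRCm38 (GENCODE M21) Socs3 lies at chr11:117966079-117970047, Socs1 at chr16:10782240-10785536, Socs2 at chr10:95385362-95417180, Cish at chr9:107296026-107302784, Pim1 at chr17:29490753-29496112 and Pim2 at chrX:7878262-7883432, all protein-coding. The libraries hold poly-A RNA of CD8 T cells enriched from the spleens of C57BL/6 mice, 4 libraries in each of 4 groups: Batf3 ko cells after 72 h of culture, wild-type cells after 72 h, Batf3 ko cells after 48 h and wild-type cells after 48 h. Cells of every group received IL-15 at 50 ng/ml together with anti-CD3e, fixed to the plate at 1 µg/ml, and anti-CD28 at 1 µg/ml. BATF3 is a basic leucine zipper transcription factor induced in activated T cells. The ko cells came from Batf3-/- mice, and the labels name no Cre driver or restriction to a cell type. The series text describes the 4 libraries of a group as technical replicates and does not give the number of mice, so a p-value below speaks for variation among libraries only, and variation among mice was not measured.

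Cytokines such as IL-2 and IL-15 bind receptors that carry Janus kinases (JAKs), which phosphorylate STAT transcription factors, and the STATs induce many of the 10 genes studied here. CIS (encoded by Cish) and SOCS1 to SOCS3 are the classical feedback inhibitors: a central SH2 domain binds phosphotyrosine, and a C-terminal SOCS box recruits elongins B and C and a cullin, forming a ubiquitin ligase. SOCS1 and SOCS3 also block JAK catalytic activity through a kinase inhibitory region. PIM kinases are constitutively active serine/threonine kinases that support growth and survival, and STAT5, the main STAT downstream of IL-2 and IL-15, is a known inducer of Pim1 and Pim2.

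The labels were checked against their defining genes before the members were compared. Batf3 itself lay between 0 and 0.366 CPM (counts scaled to a common library total) in ko libraries at 72 h and between 28.7 and 34.2 CPM in wild-type libraries at 72 h; at 48 h it lay between 0.0585 and 0.189 CPM in ko libraries and between 75.8 and 87.7 CPM in wild-type libraries. The 7 CD8 T cell markers summed to 2223 to 2342 CPM in ko and 2028 to 2073 CPM in wild-type libraries at 72 h, and to 1654 to 1729 CPM in ko and 1578 to 1639 CPM in wild-type libraries at 48 h. The members of this list did not move together at 72 h. Cd8a was lower in ko (297 to 314 CPM, wild type 333 to 364), and Cd8b1 overlapped (328 to 363 and 338 to 350). Higher in ko were Cd3g (533 to 613 CPM, wild type 393 to 466) and Cd3d (509 to 584, wild type 397 to 432). Of 5 CD4 T cell markers Cd4 and Foxp3 stayed under 1 CPM throughout and Cd40lg did not exceed 1.00 CPM, while Ctla4, which activated CD8 T cells also express, and Zbtb7b reached 1448 and 59.9 CPM. That list summed to 1263 to 1486 CPM in ko and 1019 to 1499 CPM in wild-type libraries at 72 h, and to 1000 to 1380 CPM in ko and 958 to 1174 CPM in wild-type libraries at 48 h. Library totals ran from 29375818 to 39241169 counts. The library ko 48 h replicate 4 and the library wild type 72 h replicate 4 stood apart from their groups, at a root mean square difference of 0.236 and 0.219 (log2 scale) from the rest of the group against 0.113 to 0.167 for the other libraries. In a bulk sample, fewer cells of a type and less RNA per cell cannot be told apart.

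Levels were set side by side between genes per length, as CPM divided by the merged exon length in kilobases (RPKM). Pim2 had the highest level of the 10 genes in every group, with group means of 158 RPKM in ko at 72 h, 174 in wild type at 72 h, 210 in ko at 48 h and 197 in wild type at 48 h. Pim1 came next, at 71.3 RPKM in ko at 72 h, 65.4 in wild type at 72 h, 63.2 in ko at 48 h and 60.0 in wild type at 48 h. The SOCS genes lay lower. Their highest group mean was 21.2 RPKM, reached by Socs3 in ko at 72 h and by Socs1 in wild type at 48 h. Socs6 and Socs5 had the lowest levels, with group means of 1.01 to 1.91 RPKM for Socs6 and 2.09 to 2.73 RPKM for Socs5. The place of Socs3 in this order differed between the genotypes at 72 h: in ko it had the highest level of the 8 SOCS genes, while in wild type its mean of 8.48 RPKM lay below those of Socs1 (10.1 RPKM), Cish (9.97 RPKM) and Socs7 (8.89 RPKM). Merged exons include those of minor transcripts, so the level per length is a lower estimate where they add length. Socs6 has 11349 merged bases, Socs2 9531, Cish 6419 and Socs3 2891, and the order of genes given here rests on such lengths. In plain CPM, Socs3 and Cish lay closer in ko at 72 h, with means of 61.2 and 56.3 CPM. Their order per length could differ with other transcript lengths.

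**Figure D1:**
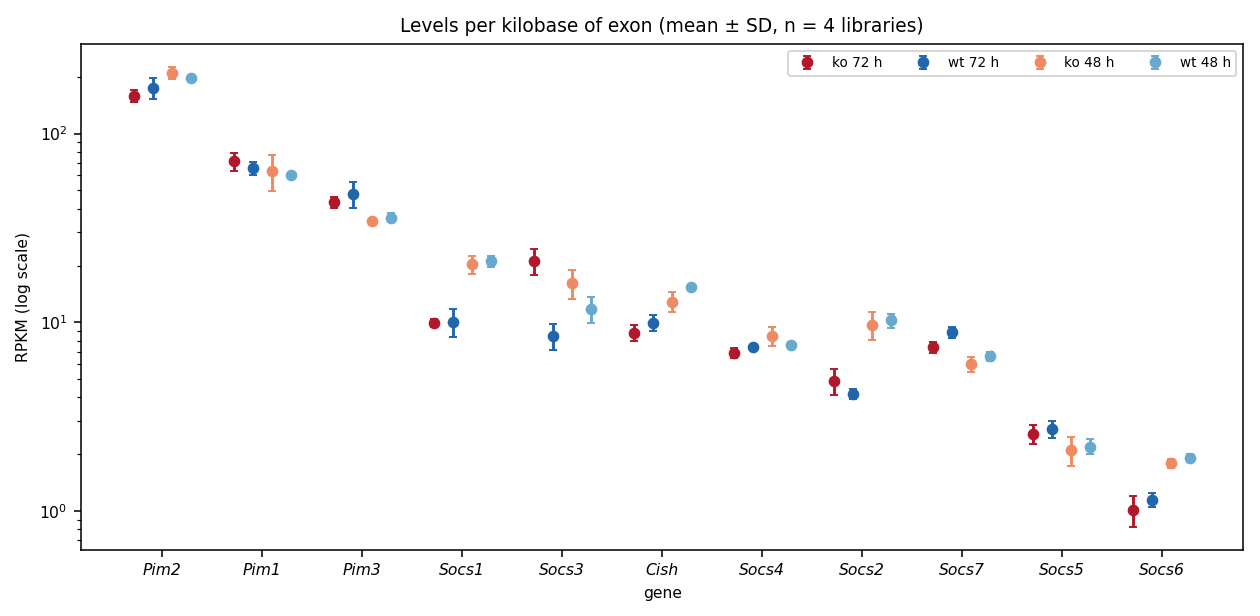
Level per length of the 10 genes, and of Pim3 for comparison, in the 4 groups, in RPKM on a log axis; points are group means and bars are SD (n = 4 libraries a group). Pim2 and Pim1 lie above all SOCS genes, and Socs3 in ko at 72 h, with a mean of 21.2 RPKM, lies above Socs3 in the other groups.

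The upstream sequences of Socs3 and Socs1, the pair of kinase-blocking inhibitors, are shown because Socs3 was the member that differed most between genotypes while Socs1 did not pass the test. They were taken from RefSeq (GRCm38.p6, minus strand for both). Each is written 5′ to 3′ up to the first annotated exon base within the 250 bases before the RefSeq start, or to that start. Capitals mark a match to TTCNNNGAA, the palindromic letters of a STAT-type site, searched on both strands. The Socs3 stretch covers chr11:117969452-117969616, the bases 250 to 86 before the RefSeq start, and lies outside annotated exons. It lies within the GENCODE M21 span of Socs3 (chr11:117966079-117970047), so an annotated exon of Socs3 starts further upstream. The Socs1 stretch covers chr16:10785537-10785786, the 250 bases before the start.
Socs3: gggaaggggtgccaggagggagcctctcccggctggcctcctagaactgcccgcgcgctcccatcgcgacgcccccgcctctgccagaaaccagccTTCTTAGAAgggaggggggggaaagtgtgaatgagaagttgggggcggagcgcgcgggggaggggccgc
Socs1: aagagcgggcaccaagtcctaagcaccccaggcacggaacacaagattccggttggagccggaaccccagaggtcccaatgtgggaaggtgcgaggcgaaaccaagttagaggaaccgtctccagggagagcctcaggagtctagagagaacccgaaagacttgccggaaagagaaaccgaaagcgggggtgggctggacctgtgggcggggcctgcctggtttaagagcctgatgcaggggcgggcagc
The match in Socs3, TTCTTAGAA, lies 154 to 146 bases before the start. Promoter windows were at hand for 6 of the 10 genes (Socs1, Socs3, Socs4, Cish, Pim1 and Pim2), and among them Socs3 was the gene whose 250 bases upstream held TTCNNNGAA. The Cish window (chr9:107296409-107296658) and a Pim1 window (chr17:29492835-29493084) lie within the GENCODE M21 spans of their genes. They are therefore not upstream of the whole annotated gene. Of all 32851 mouse windows of that length, 2306 (7.02%) held it. The AP-1 type letters TGANTCA, likewise searched on both strands, occur in 2217 of the windows (6.75%) and were not found in these 6 genes. A match is a run of letters and not a measured site, and its absence from a window says nothing about a factor.

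The comparison of ko with wild-type cells asked how the members differed between Batf3-/- and wild-type T cells at each time. Socs3, which encodes the inhibitor of JAKs bound to gp130-type receptors, was higher in ko cells at both times, by 2.73-fold at 72 h and 1.40-fold at 48 h. At 72 h Socs2 and Pim1 were also higher in ko cells, by 1.28-fold and 1.19-fold, and none of the 10 genes was called lower by edgeR or by DESeq2. Without adjustment edgeR put 1 gene, Socs7, under the threshold of 0.05 as lower. A gene was called when its adjusted p (edgeR quasi-likelihood test, Benjamini-Hochberg adjustment over 15197 tested genes) was under 0.05. At 72 h 3 of the 10 genes were called, all higher in ko, against 36.4% of all tested genes called (16.9% higher, 19.5% lower). At 48 h 1 of the 10 was called, higher in ko, against 7.07% of all tested genes (4.41% higher, 2.66% lower). These shares lie near the background, so the results below are those of single genes. The comparisons draw on the same 16 libraries and share groups with each other.

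Socs3 had 63.3, 73.1, 51.0 and 57.4 CPM in the 4 ko libraries at 72 h, against 28.3, 27.3, 22.2 and 20.2 CPM in the 4 wild-type libraries at 72 h. The groups did not overlap: the lowest ko library, at 51.0 CPM, lay well above the highest wild-type library, at 28.3 CPM. The log2 fold change was 1.45 ± 0.14 (SE, n = 4 libraries a group; adjusted p = 1.93e-07, edgeR quasi-likelihood test), and 1.42% of all tested genes had a larger change in either direction. At 48 h Socs3 had 48.8, 42.2, 38.1 and 57.3 CPM in ko libraries, against 38.5, 29.1, 29.9 and 38.5 CPM in wild-type libraries. At that time the groups met at the edge, since the lowest ko library lay just under the highest wild-type libraries. The log2 fold change at 48 h was 0.49 ± 0.13 (SE; edgeR adjusted p = 0.0297). The call at 48 h was lost when any of 5 libraries was left out (edgeR adjusted p of 0.101 without wild type 48 h replicate 2, 0.0803 without wild type replicate 3, and 0.0957, 0.0539 and 0.0627 without ko 48 h replicates 1, 2 and 4) and when an offset for exon length was fitted (adjusted p = 0.0582), whereas at 72 h the highest adjusted p in any alternative was 2.72e-06. Without the 2 libraries that stand apart the log2 fold change of Socs3 was 1.37 at 72 h (adjusted p = 2.19e-06) and 0.39 at 48 h (adjusted p = 0.0654). Across 9283 well covered genes the log2 fold change of ko against wild type ran against merged exon length, with Spearman's rho of -0.348 at 72 h and -0.398 at 48 h, as a description over genes that share libraries. Single libraries had values of -0.339 to 0.454 between exon length and their deviation from the rest of their group. Socs3 has 2891 merged exon bases, and with the exon length offset its log2 fold change was 1.41 at 72 h and 0.46 at 48 h.

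The summed level of 14 macrophage, monocyte, granulocyte and dendritic cell markers was higher in ko than in wild-type libraries at both times. It was 159 to 167 CPM in ko and 111 to 122 CPM in wild-type libraries at 72 h, and 76.6 to 85.4 CPM in ko and 63.3 to 75.2 CPM in wild-type libraries at 48 h. Of the 14 markers, 10 stayed under 1 CPM in every library, among them Lyz2, Csf1r, Itgam and Itgax, and 4 of these, Adgre1, Clec9a, S100a8 and S100a9, were at 0 in all libraries. Fcgr3, an Fc receptor gene in this list, had 7.81 to 9.92 CPM in ko and 0.490 to 0.800 CPM in wild-type libraries at 72 h, and 3.03 to 3.80 CPM in ko and 0.109 to 0.334 CPM in wild-type libraries at 48 h. Cst3, which has the highest counts of the list, had 93.4 to 103 CPM in ko and 79.6 to 89.5 CPM in wild-type libraries at 72 h, and 59.2 to 66.0 CPM in ko and 52.9 to 65.2 CPM in wild-type libraries at 48 h, where the ranges overlapped. Ccr2, a chemokine receptor gene, had 43.5 to 49.5 CPM in ko and 18.7 to 27.0 CPM in wild-type libraries at 72 h, and 10.9 to 15.5 CPM in ko and 7.10 to 9.49 CPM in wild-type libraries at 48 h. The 7 NK and gamma delta T cell markers, with Ncr1 under 1 CPM throughout, summed to 121 to 134 CPM in ko and 102 to 116 CPM in wild-type libraries at 72 h, and to 73.5 to 81.4 CPM in ko and 59.4 to 66.1 CPM in wild-type libraries at 48 h. At 72 h Klre1, Klrb1c and Gpr55 were higher in ko without overlap, while Trdc and Tcrg-C1 overlapped. Cd160, with the highest counts of this list, also overlapped, with 62.1 to 79.0 CPM in ko and 67.1 to 82.3 CPM in wild-type libraries. The 7 B cell markers, 5 of them under 1 CPM throughout, summed to 304 to 334 CPM in ko and 223 to 293 CPM in wild-type libraries at 72 h, and to 284 to 318 CPM in ko and 246 to 257 CPM in wild-type libraries at 48 h. Nearly all of this sum was Ighm, with 296 to 327 CPM in ko and 217 to 283 CPM in wild-type libraries at 72 h. Cd79b overlapped at 72 h, with 6.28 to 7.45 CPM in ko and 6.05 to 9.41 CPM in wild-type libraries. The part of such cells in the Socs3 result was not tested.

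**Figure D2:**
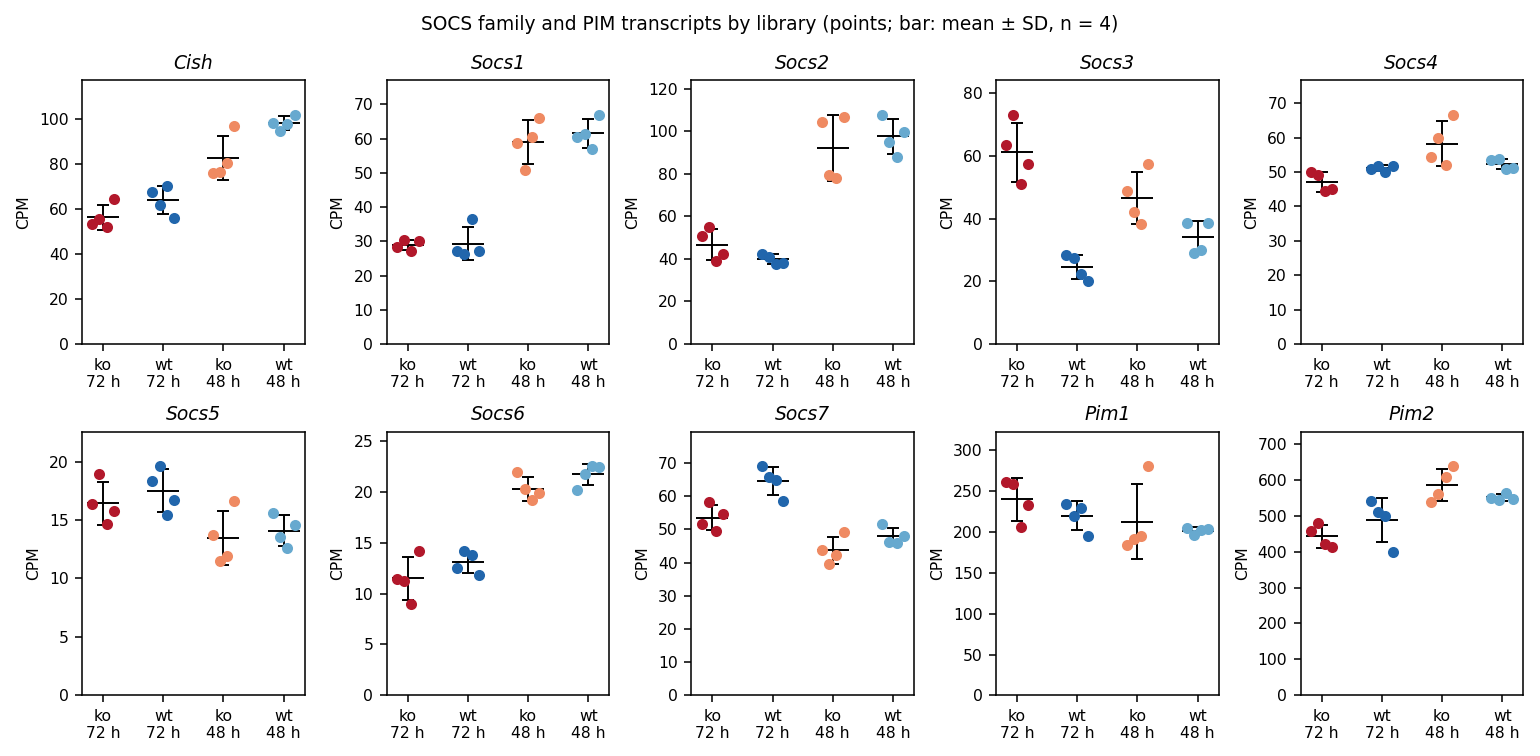
Plain CPM of each of the 10 genes in every library (points) with the group mean and SD (lines), groups ordered ko 72 h, wild type 72 h, ko 48 h, wild type 48 h. For Socs3 the ko libraries at 72 h, at 51.0 to 73.1 CPM, lie above all wild-type libraries, while Cish, Socs1, Socs2 and Socs6 separate by time.

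Among the other classical feedback genes the genotypes differed less. Cish, whose product CIS competes with STAT5 for receptor docking sites, had 53.5, 55.5, 52.0 and 64.3 CPM in ko libraries at 72 h, against 67.6, 62.1, 70.3 and 56.1 CPM in wild-type libraries at 72 h. At 48 h it had 76.3, 76.6, 80.7 and 97.2 CPM in ko libraries, against 98.5, 94.7, 97.9 and 102 CPM in wild-type libraries. In the 48 h data 3 ko libraries lay below all wild-type libraries, and the fourth was ko 48 h replicate 4, which stands apart from its group. Cish was not called at 48 h, with a log2 fold change of -0.22 ± 0.07 (SE; edgeR adjusted p = 0.0684), nor at 72 h, with -0.06 ± 0.07 (adjusted p = 0.598). With all libraries kept, Cish at 48 h passed by DESeq2 (adjusted p = 0.0219), and in edgeR with median-ratio scaling (0.0478) and with no filter (0.0466). Without ko 48 h replicate 4 the edgeR adjusted p at 48 h was 0.00901. It was 0.0387 when ko 72 h replicate 3 was dropped and 0.0428 when wild type 72 h replicate 4 was, so this call depends on the libraries and settings used. Exons of Cish share 261 and 479 bases with gene models on the opposite strand, Gm17040 and Gm17041, whose counts did not exceed 54 and 0 in any library, against at least 1561 for Cish.

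Socs2, the inhibitor best known for limiting growth hormone signalling, had 50.6, 55.0, 39.0 and 42.2 CPM in ko libraries at 72 h, against 42.5, 41.1, 37.6 and 38.0 CPM in wild-type libraries at 72 h. The ranges overlapped, with ko replicates 1 and 2 above every wild-type library. The log2 fold change was 0.36 ± 0.11 (SE; edgeR adjusted p = 0.0115). The call was lost without ko 72 h replicate 2 (adjusted p = 0.0576) and under plain library-size scaling (log2 fold change 0.23, adjusted p = 0.0942). At 48 h Socs2 averaged 92.1 ± 15.5 CPM in ko and 97.7 ± 8.32 CPM in wild-type libraries (SD, n = 4 each), and the log2 fold change of -0.05 ± 0.10 (SE) did not pass the test (adjusted p = 0.831, edgeR).

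Socs1, the inhibitor of interferon and common gamma chain cytokine signalling, had 28.4, 30.3, 27.2 and 30.0 CPM in ko libraries at 72 h, against 27.1, 26.3, 36.4 and 27.2 CPM in wild-type libraries at 72 h. The ranges overlapped through wild type 72 h replicate 3, whose value lay far above the other wild-type libraries. The log2 fold change was 0.12, with a 95% interval of -0.06 to 0.30 (edgeR adjusted p = 0.309). Without that library it was 0.22 and the gene was called (adjusted p = 0.0373). At 48 h Socs1 averaged 59.1 ± 6.37 CPM in ko and 61.5 ± 4.14 CPM in wild-type libraries (SD, n = 4 each), a log2 fold change of -0.03 with an interval of -0.20 to 0.15.

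Socs4 to Socs7 encode the SOCS proteins with long N-terminal regions, which are linked more to growth factor receptor and insulin signalling than to cytokine feedback. None of the 4 genes was called between genotypes at either time by edgeR or DESeq2. Without adjustment edgeR put 1 of them under 0.05 at each time, Socs7 at 72 h and Socs4 at 48 h. Socs7 came nearest at 72 h, with 51.5, 58.3, 49.7 and 54.6 CPM in ko libraries against 69.1, 65.7, 64.8 and 58.7 CPM in wild-type libraries. The highest ko library lay just under the lowest wild-type library. These ranges did not overlap on the plain CPM scale, as for 35.1% of all tested genes at 72 h and, among the members, for Socs3 and Socs7. After TMM scaling the log2 fold change of Socs7 was -0.14 ± 0.07 (SE; edgeR adjusted p = 0.0986). Under library-size scaling, which moved the median log2 fold change of all genes at 72 h by -0.13, it was -0.27 (adjusted p = 0.00495), and without the 2 libraries that stand apart it was -0.18 (adjusted p = 0.0309). Socs4 averaged 58.2 ± 6.49 CPM in ko and 52.4 ± 1.53 CPM in wild-type libraries at 48 h (SD, n = 4 each), a log2 fold change of 0.19 ± 0.07 (SE; edgeR adjusted p = 0.0895) that was called without ko 48 h replicate 3 (adjusted p = 0.0387) and with an offset for exon length (adjusted p = 0.0254). Socs5 and Socs6 had log2 fold changes between -0.06 and 0.03 at both times, with adjusted p from 0.703 to 0.888 (edgeR).

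Pim1 had 262, 259, 205 and 233 CPM in ko libraries at 72 h, against 235, 220, 229 and 195 CPM in wild-type libraries at 72 h. Ko replicates 1 and 2 lay above all wild-type libraries and ko replicate 3 below 3 of them, so the ranges overlapped. The log2 fold change was 0.25 ± 0.09 (SE; edgeR adjusted p = 0.0332), and 47.6% of all tested genes had a larger change. The call rested on single libraries: the edgeR adjusted p was 0.109 and 0.0988 without ko 72 h replicates 1 and 2, and 0.0558, 0.058 and 0.0924 without wild type 72 h replicates 2, 3 and 4. It was also lost under library-size scaling (log2 fold change 0.13, adjusted p = 0.346) and with an offset for exon length (adjusted p = 0.0544). At 48 h Pim1 had 184, 191, 195 and 281 CPM in ko libraries, against 205, 196, 203 and 203 CPM in wild-type libraries. Here 3 ko libraries lay below every wild-type library and ko 48 h replicate 4 lay above all of them, and the log2 fold change of 0.10 (edgeR adjusted p = 0.553) became -0.03 without the 2 libraries that stand apart. Exons of Pim1 share 488 bases with the antisense model Gm26885, which never exceeded 20 counts, against at least 6092 for Pim1.

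Pim2 averaged 443 ± 32.1 CPM in ko and 487 ± 61.9 CPM in wild-type libraries at 72 h (SD, n = 4 each). At 48 h it averaged 586 ± 44.7 CPM in ko and 551 ± 9.07 CPM in wild-type libraries. The fitted log2 fold changes were -0.01 at 72 h, with a 95% interval of -0.16 to 0.13, and 0.12 at 48 h, with an interval of -0.02 to 0.27. Pim3, the third PIM kinase and not one of the 10 genes, had log2 fold changes of -0.02 at both times (edgeR adjusted p = 0.884 at 72 h and 0.92 at 48 h).

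**Figure D3:**
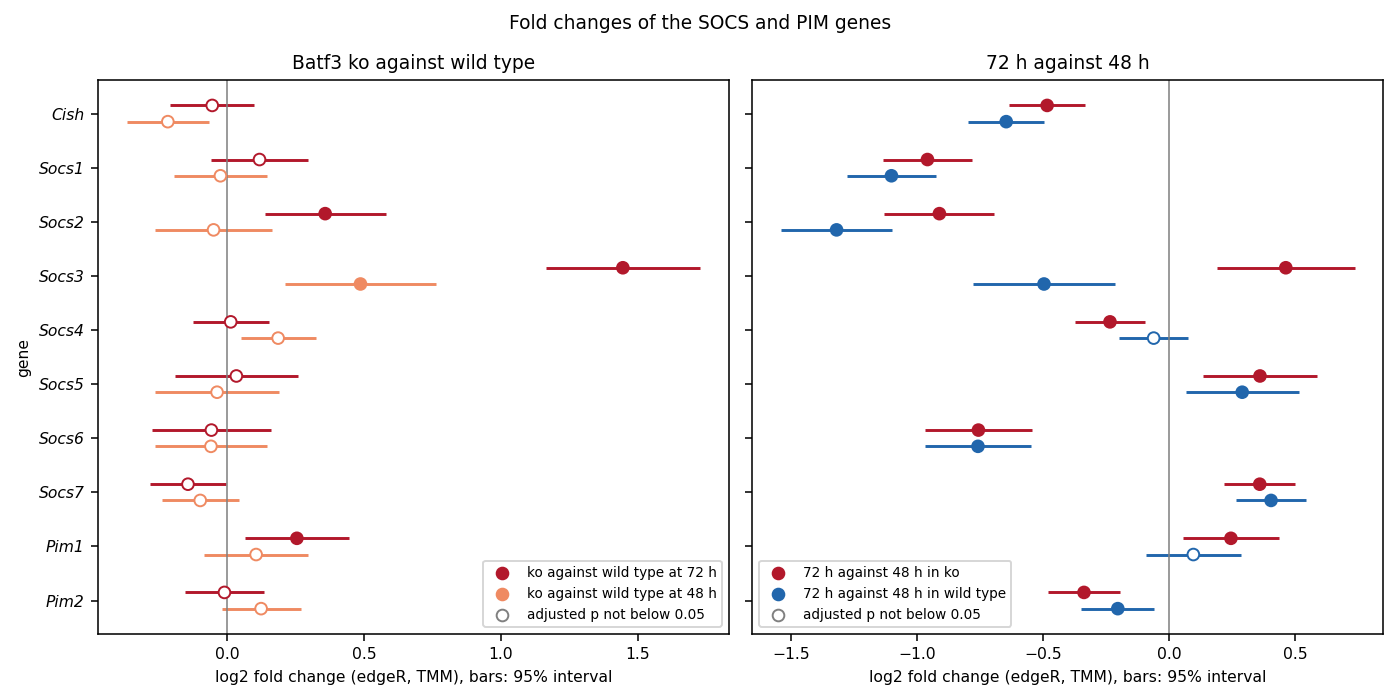
Fitted log2 fold changes (edgeR, TMM scaling) of the 10 genes with 95% intervals, for ko against wild type at 72 h and 48 h and for 72 h against 48 h in ko and in wild type; filled points passed the test. Socs3 has the largest difference between genotypes, at 1.45 on the log2 scale at 72 h, and moves in opposite directions with time in the 2 genotypes.

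The comparison of 72 h with 48 h asked how the members changed as culture went on. Socs1, Socs2, Socs6, Cish and Pim2 fell and Socs5 and Socs7 rose in both genotypes, while Socs3 rose in ko and fell in wild-type cells. In ko cells all 10 genes were called, 4 higher and 6 lower, against 68% of all tested genes called (34.4% higher, 33.6% lower). In wild-type cells 8 were called, 2 higher and 6 lower, against 63.6% of all tested genes (33.6% higher, 29.9% lower). The members' median log2 change was -0.29 in ko and -0.35 in wild type, beside 0.03 and 0.05 for all tested genes.

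Socs1 and Socs2 dropped most. Socs1 averaged 29.0 ± 1.43 CPM at 72 h and 59.1 ± 6.37 CPM at 48 h in ko cells (SD, n = 4 each), a log2 change of -0.96 ± 0.09 (SE; edgeR adjusted p = 3.75e-10). In wild-type cells it averaged 29.2 ± 4.80 CPM at 72 h and 61.5 ± 4.14 CPM at 48 h, a log2 change of -1.10 ± 0.09 (adjusted p = 4.43e-11, edgeR). The ranges at 72 h and 48 h did not overlap in either genotype. Socs2 changed by -0.91 ± 0.11 in ko and by -1.32 ± 0.11 in wild-type cells (log2, SE), with edgeR adjusted p of 6.94e-08 and 2.57e-10. Its libraries at 72 h spanned 39.0 to 55.0 CPM in ko and 37.6 to 42.5 CPM in wild type, all below the 77.9 to 107 CPM of ko and the 88.0 to 108 CPM of wild type at 48 h. Socs6 fell by 0.76 on the log2 scale in each genotype, with edgeR adjusted p of 5.08e-07 in ko and 5.31e-07 in wild type. Cish fell by 0.49 in ko and by 0.65 in wild type (log2; edgeR adjusted p = 2.75e-06 and 3.50e-08).

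Pim2, the most abundant member, fell by 0.34 in ko (log2; edgeR adjusted p = 0.000153) and by 0.20 in wild type (adjusted p = 0.0134). Its wild-type call was lost without wild type 72 h replicate 4 (adjusted p = 0.0714) and with an offset for exon length (log2 change -0.12, adjusted p = 0.141). Pim1 moved the other way and was called in ko alone, with a log2 change of 0.24 ± 0.09 (SE; edgeR adjusted p = 0.0219). In wild type the log2 change of Pim1 was 0.10 ± 0.09 (adjusted p = 0.373), and the difference between the genotypes did not pass the test (interaction 0.15, adjusted p = 0.563). The Pim1 call in ko was lost without any of ko 48 h replicates 1, 2 and 3 and ko 72 h replicates 1 and 2 (edgeR adjusted p between 0.0505 and 0.0840) and under library-size scaling (adjusted p = 0.141). Socs7 rose by 0.36 ± 0.07 in ko and by 0.40 ± 0.07 in wild type (log2, SE; edgeR adjusted p = 5.38e-05 and 1.29e-05). Socs5 rose by 0.36 in ko (edgeR adjusted p = 0.00561) and by 0.29 in wild type (adjusted p = 0.0235), the wild-type call being lost without wild type 48 h replicate 2 or 3 or wild type 72 h replicate 1 or 2 (adjusted p between 0.0528 and 0.104). Socs4 fell by 0.24 in ko (edgeR adjusted p = 0.00324), and its log2 change in wild type was -0.06 (adjusted p = 0.427).

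The interaction of genotype and time asked whether the change with time differed between the genotypes. Socs3 was the 1 gene of the 10 that passed this test, against 5.61% of all tested genes (2.08% positive, 3.53% negative). It averaged 61.2 ± 9.41 CPM in ko at 72 h, 24.5 ± 3.91 CPM in wild type at 72 h, 46.6 ± 8.37 CPM in ko at 48 h and 34.0 ± 5.20 CPM in wild type at 48 h (SD, n = 4 each). Its log2 change with time was 0.46 ± 0.13 in ko (SE; edgeR adjusted p = 0.00392) and -0.50 ± 0.13 in wild type (adjusted p = 0.00316). The interaction was 0.96 ± 0.19 (log2, SE; edgeR adjusted p = 0.00495), and 4.52% of all tested genes had a larger one. It held in every alternative tried, with adjusted p of at most 0.0155. Socs2 had the next largest interaction, 0.41 ± 0.15 (adjusted p = 0.11, edgeR), which passed without ko 48 h replicate 1 (adjusted p = 0.0436), without ko 72 h replicate 3 (0.0483) and without a filter on low counts (0.0094). The remaining 8 members had interactions between -0.17 and 0.16, with adjusted p of at least 0.303.

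By group means, the genes whose pattern over the 4 groups was closest to that of Socs3 were Nupr1, a stress-induced chromatin-associated protein gene, Cd24a, a glycosylated cell surface protein gene, and Tmem29, with root mean square differences of 0.10, 0.12 and 0.29 (log2, after centring each gene). The genes closest to Socs2 were Gm4353, Snapc5 and Gm12346, at 0.08, 0.08 and 0.09. These were the nearest of 1944 tested genes with a range of at least 1 (log2) between their group means and an average log2 CPM of at least 3. Likeness over 4 group means is a description of the level and carries no statement on shared control.

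The wider pathway was described through 7 lists of genes, whose counts and medians are described with no test of the list. Of all tested genes 36.4% were called at 72 h and 7.07% at 48 h, and their median log2 fold change was -0.02 at 72 h and 0.01 at 48 h. Osm, Il2ra, Il7r and Myc belong to a second list each, that of STAT5 targets.

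Cytokines whose receptors signal through JAKs and STATs were called in both directions. Of 11 tested, 3 were called higher in ko and 5 lower in the 72 h cultures, which is 72.7% of them against 36.4% of all genes, with a median log2 fold change of -0.77. Il10, an anti-inflammatory cytokine that signals mainly through STAT3, was higher in ko cells by 2.78 ± 0.23 at 72 h and by 2.24 ± 0.22 at 48 h (log2, SE; edgeR adjusted p = 7.24e-09 and 2.65e-07). Il13, a type 2 cytokine, and Csf2, which encodes GM-CSF, were lower in ko cells at 72 h, with log2 fold changes of -2.70 and -2.09 (edgeR adjusted p = 9.32e-10 and 1.27e-07). At 48 h 2 cytokines were higher and 1 lower (27.3% of the list). The lower one was Lif, a ligand of gp130-containing receptors, at -0.88 (edgeR adjusted p = 0.00421). Among 22 receptor chains 2 were higher and 5 lower at 72 h (31.8%, below the share of all genes), with a median of -0.03, and 1 was higher at 48 h (4.55%). Ifngr1, the ligand-binding interferon gamma receptor chain, was higher by 0.33 at 48 h (edgeR adjusted p = 0.00373), and Il10ra was lower at 72 h, at -0.34 (adjusted p = 0.000394).

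The chains, kinases and STATs that carry IL-2 and IL-15 signals had small differences. Il2rb, the shared beta chain, was lower in ko cells at 72 h at -0.19 (edgeR adjusted p = 0.0178, rising to 0.0804 when wild type 72 h replicate 1 and to 0.0976 when ko 72 h replicate 3 was dropped). Il2rg, the common gamma chain, was at -0.06 at 72 h (adjusted p = 0.466) and at -0.18 at 48 h (adjusted p = 0.0667, dropping to 0.0169 without replicate 4 of ko at 48 h and to 0.0381 without replicate 3 of ko at 72 h). Il2rg at 48 h also passed with DESeq2 (adjusted p = 0.00773), median-ratio scaling (0.0454) and exon length offsets (0.0389), and at 72 h under library-size scaling (-0.19, adjusted p = 0.0274). Stat5b was higher at 72 h by 0.19 ± 0.06 (log2, SE; edgeR adjusted p = 0.0158, and 0.0625 without wild type 72 h replicate 4). The Stat5b call was also lost under library-size scaling (0.06, adjusted p = 0.46) and with no filter (adjusted p = 0.0531). Stat5a had 0.19 ± 0.09 (adjusted p = 0.114). Jak1 and Jak3, the kinases bound to these chains, had 0.07 (adjusted p = 0.394) and 0.28 (adjusted p = 0.0638) at 72 h, and Il15ra, the private IL-15 chain, had -0.15 (adjusted p = 0.35). Single libraries and the choice of fit decided these calls: Jak3 passed once replicate 1, 2 or 4 of ko at 48 h was dropped, or replicate 3 of either genotype at 72 h (edgeR adjusted p from 0.00488 to 0.0495). With all libraries kept, Jak3 at 72 h passed with no filter (0.00199), with only the groups compared (0.00675), with exon length offsets (0.0215) and by DESeq2 (0.0444). Stat5a passed once replicate 4 of ko at 48 h, 1 of wild type at 72 h or 3 of ko at 72 h was dropped (edgeR adjusted p from 0.0378 to 0.0436), with only the groups compared (0.0456) and with exon length offsets (0.0107). Of the 11 JAK and STAT genes 1 was higher and 4 lower at 72 h (45.5%), with a median of -0.09.

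Of 11 other inhibitors of JAK and STAT signalling, 1 was higher in ko and 5 were lower at 72 h (54.5%), with a median of -0.19, and 2 were lower at 48 h (18.2%). Ptpn2, a phosphatase acting on JAK1, JAK3 and STATs, was the higher one, at 0.48 ± 0.08 (log2, SE; edgeR adjusted p = 7.08e-05). Usp18, which limits type I interferon receptor signalling, was lower at both times, at -0.70 at 72 h and -0.77 at 48 h (edgeR adjusted p = 0.000179 and 0.000212). Sh2b3, an adaptor that restrains JAK2, was at -0.59, and Ptpn11, which encodes the phosphatase SHP2, at -0.42 at 72 h (edgeR adjusted p = 3.64e-05 and 2.33e-06). Of 9 partners of the SOCS box ligase, 5 were higher and none lower at 72 h (55.6%) by edgeR and by DESeq2, with a median of 0.21, and none was lower at 0.05 without adjustment either. Eloc, which encodes elongin C, was at 0.37 (edgeR adjusted p = 0.0103). With an offset for exon length 2 partners were higher and none lower at 72 h, and under library-size scaling 2 were higher and 1 lower. At 48 h none was higher and 1 was lower (11.1%). This was Cul5, a cullin gene, at -0.25 (edgeR adjusted p = 0.0369), a call lost with an offset for exon length (adjusted p = 0.142).

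Known STAT5 targets in T cells were called in both directions: of 14, 5 had higher and 6 had lower levels in ko at 72 h (78.6%, against 36.4% of all genes), with a median of -0.02, and 2 were higher and 2 lower at 48 h (28.6%). Prf1, which encodes perforin, was higher in ko cells by 1.16 ± 0.09 at 72 h and by 0.76 ± 0.10 at 48 h (log2, SE; edgeR adjusted p = 8.00e-09 and 1.67e-05). Bcl6, a transcriptional repressor that STAT5 represses, was higher by 1.30 at 72 h (edgeR adjusted p = 0.000166), and Lta, which encodes lymphotoxin alpha, was lower, at -0.80 (adjusted p = 0.000175). As the list is not limited to genes that STAT5 induces, its median gives no direction of STAT5 activity. Of 15 genes made up of Pim3 and known PIM substrates, 3 were higher and 4 lower at 72 h (46.7%), with a median of -0.02, and 2 were higher and 1 lower at 48 h (20%). Cdc25a, a cell cycle phosphatase, was at -0.66 and Nfatc1, a transcription factor of T cell activation, at -0.52 at 72 h (edgeR adjusted p = 8.18e-07 and 6.94e-06). Cdkn1b, which encodes the cell cycle inhibitor p27, was higher by 0.37 (adjusted p = 0.000671), and Myc was lower at -0.33 (adjusted p = 0.00123).

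**Figure D4:**
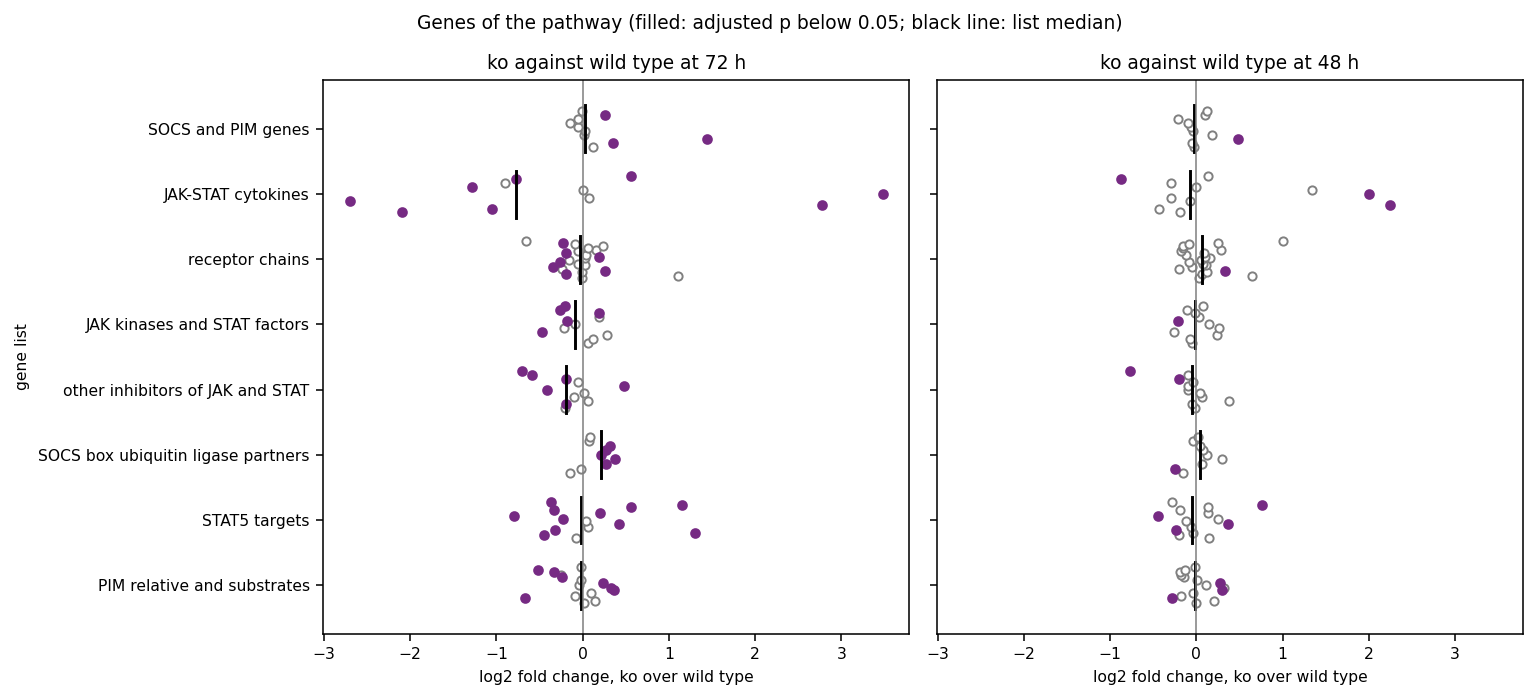
Log2 fold change of ko against wild type at 72 h and 48 h for every tested gene of the 10 members and the 7 pathway lists; points are genes, filled where the adjusted p was below 0.05, and black lines are list medians. The cytokine list has the lowest median at 72 h, -0.77, while the medians of the members and the STAT5 targets lie within 0.05 of 0. The STAT5 list includes Bcl6, which STAT5 represses, so its median gives no direction of STAT5 activity.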

How the data were processed

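The authors deposited raw counts of reads for 55335 gene identifiers in 16 libraries of 4 groups, as whole numbers without normalization. Per the labels' protocols, stranded poly-A libraries were made from total RNA. The tools were STAR 2.7, featureCounts and bcl2fastq 2.2.0, with the build GRCm38, per the submitters' processing notes. Which annotation release, strand setting and multimapping rule applied is not given in the sources used here. Overlapping and antisense genes are therefore uncertain. Totals of 29375818 to 39241169 counts put the floor of 3 counts at 0.0765 to 0.102 CPM, which covers counting error only.

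Members were matched by gene name, and positions and merged exon lengths came from GENCODE M21 (GRCm38), which held 55154 of the identifiers. Plain CPM used column sums. All 16 libraries in 4 groups were fitted with edgeR 4.0.16 in R 4.3.3 (filterByExpr at a minimum count of 10, then TMM scaling and a two-sided quasi-likelihood F test with robust dispersions; Benjamini-Hochberg over 15197 genes, threshold 0.05). TMM factors differed between groups at 72 h, so fitted folds and ratios of plain CPM differ there. Standard errors were obtained from each log2 fold change and its F value. The fit was tested on simulated data. No 2 libraries of a group agreed within sampling noise.

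The members and lists were chosen with earlier results of these data known. All 10 members are named; of each pathway list, up to 4 genes with the largest called change per comparison, 8 fixed genes, and, for the 2 members with the widest span, the 3 most similar genes could be named. The settings varied were scaling (median-ratio, library-size), no filter, a filter at 1 CPM in 4 libraries, only the groups compared, a replicate block, DESeq2 1.42.0 and leaving out each library. Exon length offsets and leaving out the 2 libraries that stand apart were added after seeing the data. 1 result of the pathway lists is not reported here.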

Additional observations from a re-analysis of the deposited data

Results flagged for a closer look

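In 2 of 40 sets of 4 libraries (10 genes in 4 groups) 1 library lay far from the other 3; chance gives about 1 in 20 such sets. Socs1 had 36.42 CPM in wild type 72 h replicate 3, while the other wild-type libraries at 72 h had 26.3 to 27.2 CPM. Pim1 had 280.7 CPM in ko 48 h replicate 4, while the other ko libraries at 48 h had 184 to 195 CPM; that library also stands apart from its group over all genes. The third result is a difference between genotypes in the change with time: the interaction of genotype and time for Socs3 was 0.96 on the log2 scale (edgeR quasi-likelihood test, adjusted p = 0.00495), with Socs3 higher at 72 h than at 48 h in the group means of ko cells (61.2 and 46.6 CPM) and lower in those of wild-type cells (24.5 and 34.0 CPM).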

How the results depend on the processing

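Over 25 alternatives the 50 tests of the members gave 1240 values, of which 1152 kept direction and call, 29 lost a call, 15 gained one and 44 changed sign, none of them called. Socs3 at 72 h, in both time comparisons and in the interaction was called in every alternative. The number of members called at 48 h, 1 in the fit reported, was 2 with median-ratio scaling, without a filter and with DESeq2, where Cish joined Socs3, and 0 to 2 when 1 library was left out. At 72 h it was 1 to 3 with 1 library left out, against 3; 2 under library-size scaling (Socs3 higher and Socs7 lower), 2 with exon length offsets and 4 without both libraries that stand apart, where Socs7 joined as lower. For the interaction it was 2 without a filter and 1 to 2 with 1 library left out, against 1. The cause was not tested.

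Signs that turned belong to log2 fold changes near 0. With exon length offsets these were, at 48 h, Socs2 0.0286, Socs5 0.0020, Socs6 0.0375 and Stat5b 0.0086, and at 72 h Socs6 0.0654 and Cish 0.0162. Under library-size scaling they were Stat5a -0.0010 at 48 h, Socs1 -0.0116, Socs4 -0.1137, Socs5 -0.0919 and Jak1 -0.0599 at 72 h, and Socs5 -0.0208 and Socs6 -0.0882 for the interaction of genotype and time. Without a filter Socs4 was -0.0013 at 72 h. With only the groups compared, Pim2 was 0.0084 and Pim3 0.0009 at 72 h. Without both libraries that stand apart, Pim1 was -0.0344 and Stat5a -0.0907 at 48 h. The interaction of Socs6 was -0.0064 without a filter, -0.0036 with the stricter filter and -0.0574 without both libraries that stand apart. With 1 library left out, the ranges at 48 h were -0.0374 to 0.1080 for Il15ra, -0.0345 to 0.1546 for Pim1, -0.0514 to 0.0089 for Pim3, -0.0644 to 0.0186 for Socs1, -0.1333 to 0.0207 for Socs2, -0.1330 to 0.0143 for Socs5, -0.0908 to 0.0672 for Stat5a and -0.0525 to 0.0003 for Stat5b. At 72 h they were -0.0864 to 0.0383 for Pim2, -0.0900 to 0.0642 for Pim3, -0.0191 to 0.0456 for Socs4, -0.0400 to 0.0976 for Socs5 and -0.1751 to 0.0453 for Socs6. For the interaction they were -0.0016 to 0.1645 for Socs5, -0.1144 to 0.1282 for Socs6 and -0.0841 to 0.0192 for Socs7.

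Library-size scaling made 23.4% of the calls at 72 h higher in ko, against 46.4%, and 48.3% of those at 48 h, against 62.3%; DESeq2 gave 48.5% at 48 h, calling 1638 genes against 1075, and leaving out both libraries that stand apart called 2550 genes. Same-numbered libraries of the 2 genotypes or times had correlations of -0.25 to 0.271 in their deviations from the group means. The highest, 0.266 and 0.271, were those of wild-type replicates 1 and 3 between the times. As the deviations also carry effects of single libraries, these values cannot decide whether the numbers pair the libraries. With a replicate block the members called were 3 at 72 h, 1 at 48 h, 10 and 8 in the time comparisons in ko and wild type and 1 for the interaction, as without it, and the interaction of Socs6 was -0.0033.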
